A study of Homo sapiens with 16 samples.

Results

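NECTIN4, EPCAM, MUC1 and F3 code for surface proteins that antibody drugs have been made or tested against in urothelial and other carcinomas. They were picked by gene symbol, under a rule that uses no measured value but was set with earlier results of these data known, and are 4 of the 35993 gene rows of the count table. All 4 passed the filter on low counts that left 21297 genes to test. Their transcripts were followed in 16 libraries from 4 established human bladder cancer (BC) lines, 253J, J82, RT112 and TCCSUP, each labelled WT and each a single line rather than a set of tumors. In each line, 2 control libraries came from cells that the labels call vehicle controls, given DMSO at 0.01%, though the text of the study also calls its controls untreated, and 2 came from cells given CM-1758, an inhibitor of histone deacetylases (HDACs), for 48 h. CM-1758 was used at the IC50 of each line, the concentration at which a response falls midway, so the concentration differed between lines, and line and concentration cannot be told apart in a comparison of responses. 253J, J82 and RT112 were grown in DMEM and TCCSUP in EMEM. The methods of the study call the paired libraries independent biological replicates.

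An antibody-drug conjugate binds a protein on the outside of a cell, is taken up with it and releases a toxic payload inside, so uptake depends in part on how much target the surface holds. NECTIN4 codes for nectin-4, an adhesion protein of the immunoglobulin family that is found in urothelium and is the target of enfortumab vedotin. EPCAM codes for the epithelial cell adhesion molecule, the target of oportuzumab monatox, an antibody fragment fused to a toxin and tested by instillation into the bladder. MUC1 codes for mucin 1, a heavily O-glycosylated transmembrane mucin, and F3 codes for tissue factor, which binds coagulation factor VII and starts clotting, and is the target of tisotumab vedotin. HDACs remove acetyl groups from histones, and their inhibition raises histone acetylation. The libraries measure RNA and not surface protein.

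The sequences just upstream of the transcription start were printed for the members found in the promoter table of RefSeq (build GRCh38.p14), because these genes changed in at least 1 line and differ in base composition here. Each is 250 bases long, on the minus strand and written 5′ to 3′, and ends at the base before the start. Capitals mark matches, on either strand, to the GC box, the AP-1 site, the E-box bound by ZEB and SNAI factors, and the TATA box, whose letters follow below the sequences.
NECTIN4, chr1:161089559-161089808: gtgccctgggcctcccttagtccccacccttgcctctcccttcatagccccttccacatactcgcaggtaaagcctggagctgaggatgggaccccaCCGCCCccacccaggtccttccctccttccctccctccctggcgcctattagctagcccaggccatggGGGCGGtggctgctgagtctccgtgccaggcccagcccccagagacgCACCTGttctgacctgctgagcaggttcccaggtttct
MUC1, chr1:155192916-155193165: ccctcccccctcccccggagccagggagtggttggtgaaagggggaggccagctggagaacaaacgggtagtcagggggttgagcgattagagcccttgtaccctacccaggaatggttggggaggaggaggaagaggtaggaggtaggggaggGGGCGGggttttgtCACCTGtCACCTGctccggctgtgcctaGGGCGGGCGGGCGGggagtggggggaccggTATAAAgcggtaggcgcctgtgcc
F3, chr1:94541760-94542009: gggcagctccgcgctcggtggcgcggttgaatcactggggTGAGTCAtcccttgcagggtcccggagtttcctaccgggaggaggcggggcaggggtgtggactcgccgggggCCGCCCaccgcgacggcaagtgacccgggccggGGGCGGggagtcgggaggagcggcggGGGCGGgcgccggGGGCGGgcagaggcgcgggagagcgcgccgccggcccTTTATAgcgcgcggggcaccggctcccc
The F3 stretch had a GC content of 78.0% and 34 CpG sites. The NECTIN4 stretch had 65.2% and 6 CpG sites, and the MUC1 stretch 66.0% and 11, beside medians of 58.0% and 11 over all 27305 promoters. The GC box, GGGCGG, matched 2 times in NECTIN4 and 4 times each in MUC1 and F3, where matches can overlap, and 42.3% of all promoters of this length held it. The E-box, CAGGTG, matched 1 time in NECTIN4 and 2 times in MUC1 and was held by 17.5% of all promoters. The AP-1 site, TGAGTCA, matched 1 time in F3 and was held by 4.16%. The TATA box, TATAAA, matched 1 time each in MUC1 and F3 and was held by 11.1%. The table lists 2 entries for MUC1.

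The libraries held 22506431 to 32537104 counts each (median 28332731). Levels are given as CPM, the counts relative to the library size after TMM scaling, and a change was called where the adjusted p of edgeR's quasi-likelihood test was under 0.05. Groups of 2 libraries can separate without a change, and the share of all genes that did so was not counted. A lack of overlap between groups is therefore given as a description only. A count of 0 allows a level of up to 3 counts, or 0.0981 to 0.119 CPM depending on the library, for counting error only. The control libraries of J82 differed from each other more than those of any other group, with a chi-square per degree of freedom of 74.4, against 11.8 to 50.3 in the other 7 groups. The keratin genes KRT8 and KRT18 were present in every group, with mean control levels of 174 to 3030 and 855 to 2327 CPM. GATA3, a transcription factor of urothelium, stood at 37.5 CPM in RT112 controls and 6.29 in TCCSUP, but at 0.374 in 253J and 0.760 in J82.

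In control cells, RT112 stood apart for NECTIN4 and EPCAM, while F3 was highest in TCCSUP and J82, and MUC1 was low in all lines. Per kilobase of exon, with lengths taken from the GENCODE annotation of GRCh38, F3 reached 413 ± 12.0 (SD, n = 2) CPM in TCCSUP controls and 304 ± 16.8 in J82 controls, above 99.8% and 99.5% of the 19379 tested genes with a length in the same group. EPCAM reached 85.8 ± 2.14 CPM per kilobase in RT112 controls, above 98.3% of those genes. NECTIN4 reached 11.4 ± 2.63 CPM per kilobase there, above 80.2%. MUC1 reached 1.26 ± 0.221 CPM per kilobase at most, in TCCSUP controls, above 41.8%. The plot of levels by library shows each value.

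NECTIN4 was near the counting floor in 3 of the 4 control lines and rose with CM-1758 in each of these 3. In 253J the control libraries held 3 and 2 counts (0.109 and 0.0766 CPM) and the treated ones 75 and 108 (2.97 and 3.64 CPM). In TCCSUP the control libraries held 5 and 8 counts (0.198 and 0.306 CPM), and the treated ones 226 and 252 (8.46 and 9.92 CPM). Both J82 control libraries held 0 counts, while the treated ones held 36 and 54 (1.29 and 1.83 CPM). The treated libraries thus lay above the control libraries in each of these lines with no overlap. In 253J the log2 fold change was 5.09 (SE 0.41, Benjamini-Hochberg adjusted p = 3.24e-07, edgeR), and the ratio of summed counts was 35.8 with a 95% counting interval of 15.1 to 112. In TCCSUP it was 5.16 (SE 0.32, edgeR adjusted p = 3.48e-08). In J82 the rise of NECTIN4 was bounded from below only, being at least 14.0-fold against a floor of 3 counts per library (edgeR adjusted p = 2.23e-06). Many genes rise from such low counts. Of the tested genes with at most 3 counts in both control libraries of the line, 38.4% were called higher in 253J and 29.4% in J82. No such share was counted for TCCSUP. A gene can pass the filter on low counts through treated libraries alone, while NECTIN4 also had high counts in RT112. The shares are therefore a description only. In these bulk samples, more cells with the transcript and more transcript per cell cannot be told apart.

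RT112 was the only one of the 4 lines with a sizeable control level of NECTIN4. Its control libraries held 33.4 and 46.4 CPM and its treated libraries 49.6 and 57.3, so that the groups did not overlap. The log2 fold change of 0.42 (SE 0.20) did not pass the test (edgeR adjusted p = 0.0936). It was 0.20 without RT112 control replicate 1 and 0.67, with an adjusted p of 0.0480, without replicate 2. After CM-1758 the order of lines was RT112, TCCSUP, 253J and J82, and the 6 differences between treated lines were called for NECTIN4. TCCSUP with CM-1758 stood below RT112 by a log2 difference of 2.54 (SE 0.21, edgeR adjusted p = 3.15e-07), where its control level had stood below it by 7.28 (SE 0.32, adjusted p = 1.76e-10). The control levels of 253J and TCCSUP did not differ by the test (adjusted p = 0.0886), and those of 253J and J82, both at 3 counts or fewer per library, allow no order.

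EPCAM was highest in RT112, where its change with CM-1758 did not pass the test. RT112 control libraries held 212 and 220 CPM and treated libraries 248 and 237, a log2 fold change of 0.16 (SE 0.19, edgeR adjusted p = 0.501). In TCCSUP the control libraries held 10.3 and 10.99 CPM and the treated ones 7.49 and 5.63. J82 had 0.874 and 1.60 CPM in controls against 2.47 and 1.66 with CM-1758, and 253J had 0.398 and 0.536 against 1.23 and 1.82. Treated libraries lay above controls in 253J, J82 and RT112 and below them in TCCSUP, without overlap in any line. Such a separation of 2 against 2 libraries is a description and does not show a change. EPCAM rose in 253J by 1.72 on the log2 scale (SE 0.36, edgeR adjusted p = 0.00109), from 11 and 14 counts to 31 and 54.

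In TCCSUP EPCAM fell by 0.70 on the log2 scale (SE 0.21, edgeR adjusted p = 0.0118). This call was lost with library size alone as the scaling (-0.39, adjusted p = 0.134), without control replicate 2 (-0.66, adjusted p = 0.0646) and without treated replicate 2 (-0.51, adjusted p = 0.131). In J82 the log2 fold change of EPCAM was 0.73 (SE 0.29) and missed the threshold (edgeR adjusted p = 0.0566), with 0.36 without control replicate 1 and 1.23, past the threshold, without control replicate 3. The order of control levels was RT112, TCCSUP, J82 and 253J, and the 6 differences were called. The step between J82 and 253J was lost without 253J control replicate 2 (adjusted p = 0.0529) or without J82 control replicate 3 (adjusted p = 0.115). With CM-1758, 253J and J82 overlapped for EPCAM (edgeR adjusted p = 0.223).

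MUC1 rose in RT112 and fell in TCCSUP, as F3 did, and from low levels in both. RT112 control libraries held 1.24 and 1.93 CPM and treated ones 6.77 and 8.09. TCCSUP control libraries held 5.22 and 6.70 CPM, and treated ones 1.09 and 1.34. The order of these lines was therefore turned by CM-1758, with no overlap of treated and control libraries in either. MUC1 rose in RT112 by 2.23 (SE 0.48, edgeR adjusted p = 0.00143) and fell in TCCSUP by 2.30 (SE 0.49, edgeR adjusted p = 0.00121) on the log2 scale. Counts behind these values ran from 29 to 212 per library.

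In 253J the MUC1 levels were 0.652 and 1.57 CPM in controls and 0.436 and 0.506 with CM-1758, and in J82 they were 3.91 and 1.38 against 2.00 and 1.02. The J82 groups overlapped and the 253J groups did not. Neither change passed the test, with log2 values of -1.22 (SE 0.59, edgeR adjusted p = 0.0979) in 253J and -0.81 (SE 0.49, edgeR adjusted p = 0.201) in J82. In 253J the change passed without control replicate 2 (-1.72, adjusted p = 0.0403) and was -0.46 without replicate 3. In J82 it passed without control replicate 3 (-1.37, adjusted p = 0.0308) and turned to 0.12 without control replicate 1. Of the 6 control pairs, 4 were called for MUC1 and 2 of these held in every alternative, TCCSUP above 253J and above RT112. Exons of MUC1 overlap those of another GENCODE gene on the same strand that has no row in the table, and how the authors counted reads shared by them is not given in the sources used here.

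F3 was abundant in TCCSUP and J82, intermediate in RT112 and low in 253J. TCCSUP controls held 1212 and 1163 CPM and treated libraries 693 and 529. J82 held 909 and 841 against 676 and 647. RT112 held 70.8 and 112 against 272 and 255, and 253J 8.73 and 8.62 against 9.03 and 10.4. Treated libraries were below the controls in TCCSUP and J82 and above them in RT112 and 253J, with no overlap in any line. This is a description only, since groups of 2 libraries can separate without a change. F3 rose in RT112 by 1.53 (SE 0.19, edgeR adjusted p = 1.58e-05) and fell in TCCSUP by 0.96 (SE 0.19, edgeR adjusted p = 0.000612) on the log2 scale. In J82 its change of -0.40 (SE 0.19) did not pass (edgeR adjusted p = 0.0989), nor did the 0.17 (SE 0.21) of 253J (edgeR adjusted p = 0.541). In the controls 5 of 6 differences between lines were called for F3. The sixth, J82 against TCCSUP, stood at -0.44 (SE 0.19, edgeR adjusted p = 0.0658) and was past the threshold under RLE scaling, library size alone, DESeq2 and a stricter count filter, and without J82 treated replicate 1 (-0.52, adjusted p = 0.0338) or either RT112 control library. The levels of F3 in RT112 and TCCSUP differed by -3.70 in the controls (SE 0.21) and by -1.21 with CM-1758 (SE 0.19) on the log2 scale.

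**Figure D1:**
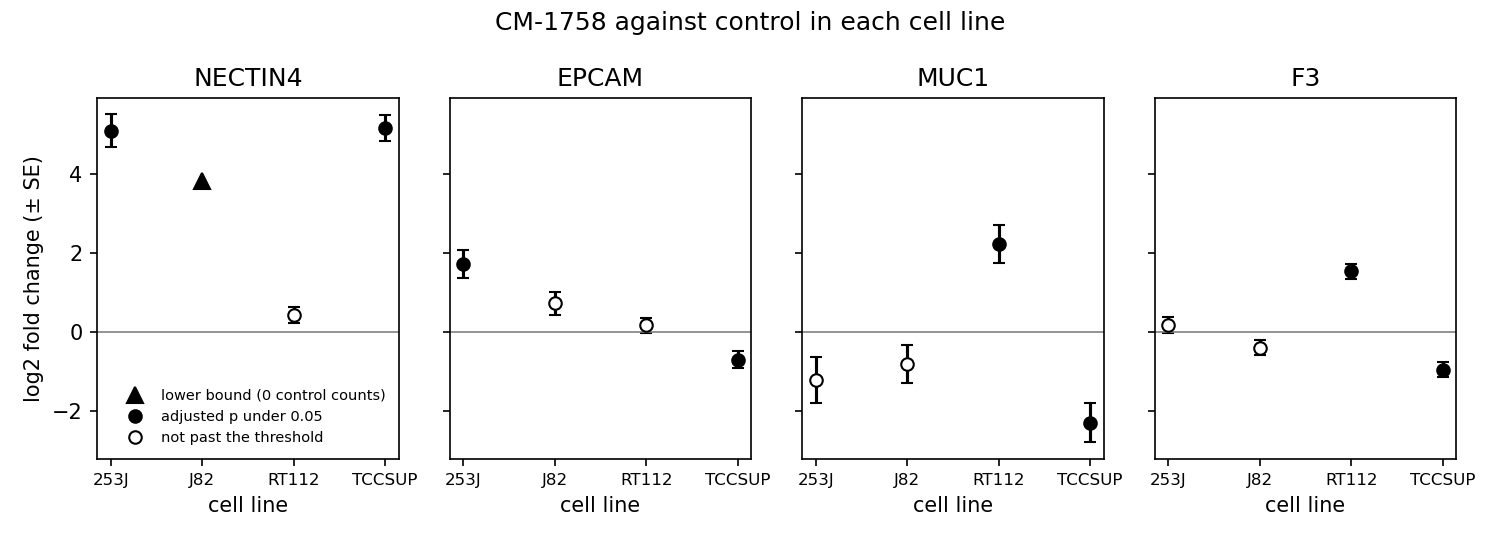
Log2 fold change of CM-1758 over control for each gene and cell line, with its standard error from edgeR, filled where the adjusted p was under 0.05 and open where it was not. The triangle for NECTIN4 in J82 is the lower bound of 14.0-fold, as both control libraries held 0 counts, and EPCAM, MUC1 and F3 in TCCSUP lie below 0.

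By line, CM-1758 gave 2 higher and 0 lower calls among the 4 genes in 253J, where 28.8% of all tested genes were called higher and 22.4% lower. J82 had 1 higher and 0 lower, against 24.0% and 18.5%. RT112 had 2 higher and 0 lower, against 27.4% and 20.2%. TCCSUP had 1 higher, NECTIN4, and 3 lower, the other three, against 32.0% and 22.1%. With library size alone as the scaling, the median log2 fold change of all genes moved up by 0.27, 0.15, 0.15 and 0.31 in 253J, J82, RT112 and TCCSUP, and the higher share of all called genes moved from 56.2% to 68.5% in 253J and from 59.1% to 73.9% in TCCSUP.

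The effect of CM-1758 differed between lines for each of the 4 genes by an F test of the interaction, a test that 51.9% of all tested genes passed. The edgeR adjusted p was 5.62e-07 for NECTIN4, 1.87e-05 for F3, 0.000434 for MUC1 and 0.00105 for EPCAM. For NECTIN4 the called pairs were RT112 against each other line, for instance a log2 difference of -4.74 for RT112 minus TCCSUP (SE 0.39, edgeR adjusted p = 1.16e-06). For MUC1 they were also RT112 against each other line, with 4.52 for RT112 minus TCCSUP (SE 0.69, edgeR adjusted p = 0.000172). For F3, 4 pairs were called, RT112 against each other line, with 2.49 for RT112 minus TCCSUP (SE 0.27, edgeR adjusted p = 8.11e-06), and 253J against TCCSUP (1.12, SE 0.28, adjusted p = 0.00712). For EPCAM, 4 pairs were called, of which 253J against TCCSUP (2.41, SE 0.42, adjusted p = 0.000545) and J82 against TCCSUP (1.43, SE 0.36, adjusted p = 0.0101) held in every alternative. The EPCAM pair 253J against RT112 was lost without 253J treated replicate 3 (1.23, adjusted p = 0.0799) or control replicate 2 (1.35, adjusted p = 0.0690). The EPCAM pair RT112 against TCCSUP was lost under library size alone (0.70, adjusted p = 0.0789) and without any 1 of the 4 RT112 libraries, either TCCSUP control or TCCSUP treated replicate 2 (adjusted p from 0.0646 to 0.162). Shares of all tested genes called for the interaction were 30.0% for 253J against J82, 30.0% for 253J against RT112, 28.6% for 253J against TCCSUP, 22.2% for J82 against RT112, 22.2% for J82 against TCCSUP and 27.5% for RT112 against TCCSUP.

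Control levels differed between lines for the 4 genes by the F test, as they did for 78.8% of all tested genes. Of 6 pairs each, 6 were called for EPCAM, 5 for NECTIN4, 5 for F3 and 4 for MUC1, against 53.1% of all genes for 253J and J82, 54.3% for 253J and RT112, 53.1% for 253J and TCCSUP, 52.1% for J82 and RT112, 48.0% for J82 and TCCSUP and 51.5% for RT112 and TCCSUP. The NECTIN4 count includes 253J against J82, which lie at 3 counts or fewer per library, so that no order can be read, and whose call was lost without 253J control replicate 2, J82 control replicate 1 or J82 control replicate 3 (adjusted p = 0.0836, 0.0941 and 0.102). Between treated lines, 6 pairs were called for NECTIN4, 5 for EPCAM, 5 for F3 and 4 for MUC1. The shares of all genes were then 54.3%, 58.0%, 53.9%, 54.2%, 52.3% and 51.9% in the same order of pairs. Among treated lines, J82 and TCCSUP did not differ by the test for F3 (0.11, SE 0.19, edgeR adjusted p = 0.635) or for MUC1 (0.31, SE 0.51, edgeR adjusted p = 0.635).

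Nectins bind each other across cell contacts, and afadin (AFDN) ties them to actin. Of 12 tested relatives and partners of nectin-4, 3 were called higher and 4 lower in 253J, 5 and 1 in J82, 8 and 3 in RT112, and 5 and 5 in TCCSUP, where library size alone as the scaling left 2 lower. Counts for this list and each list below stand beside the shares of all tested genes called higher and lower. These shares were 28.8% and 22.4% in 253J, 24.0% and 18.5% in J82, 27.4% and 20.2% in RT112, and 32.0% and 22.1% in TCCSUP. No list was tested as a set. The median log2 fold change of the nectin list was 0.15, 1.12, 0.74 and 0.42, against 0.10, 0.05, 0.12 and 0.20 over all tested genes. With genes at 0 counts in a group set to their bound, it was 0.00055, 0.48, 0.62 and 0.42. PVR, the poliovirus receptor and a ligand of the immune receptor TIGIT, fell in the 4 lines, from 851 ± 28.5 to 116 ± 6.13 CPM in 253J (log2 -2.88, SE 0.17) and from 330.4 ± 6.10 to 80.5 ± 4.11 in TCCSUP (log2 -2.04, SE 0.16; mean ± SD, n = 2 each here and below). AFDN rose in J82, RT112 and TCCSUP, and in TCCSUP it went from 53.2 ± 4.05 to 165 ± 6.68 CPM (log2 1.64, SE 0.13). NECTIN3, which codes for nectin-3, fell in 253J (log2 -0.89, SE 0.16) and TCCSUP (log2 -1.17, SE 0.16) and rose in RT112 (log2 0.81, SE 0.16). NECTIN2, which codes for nectin-2, fell in 253J (log2 -1.52, SE 0.19). CADM1, an adhesion protein of the same superfamily, fell in 253J (log2 -2.18, SE 0.17) and rose in J82 (log2 1.46, SE 0.17) and TCCSUP (log2 3.91, SE 0.22). Each of these calls held in every alternative that was run, those with edgeR and the 1 with DESeq2. NECTIN2 was also called higher in RT112 (log2 0.67, SE 0.19), a call lost without control replicate 1 (0.60, adjusted p = 0.0699) or treated replicate 1 (0.52, adjusted p = 0.0839), and lower in TCCSUP (log2 -0.79, SE 0.19), a call lost under library size alone (-0.48, adjusted p = 0.0510).

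EPCAM sits in the membrane with claudin-7, CD9 and CD44 and is cut by ADAM proteases and the presenilins, which frees a fragment that acts with beta-catenin. Of 16 tested partners and proteases, 1 was higher and 10 lower in 253J, 5 and 5 in J82, 3 and 4 in RT112, and 3 and 11 in TCCSUP, with median log2 fold changes of -0.86, 0.16, -0.22 and -0.84, of which that of RT112 was -0.07 under library size alone. ADAM10, a protease that cuts many surface proteins, fell from 1771 ± 6.18 to 309.6 ± 56.4 CPM in 253J (log2 -2.52, SE 0.17) and from 589 ± 49.4 to 232 ± 9.60 in TCCSUP (log2 -1.34, SE 0.16). CD44, a hyaluronan receptor, fell in the same lines (log2 -2.29, SE 0.38, and log2 -2.35, SE 0.38). SPINT2, an inhibitor of membrane serine proteases, fell in 253J (log2 -2.75, SE 0.18), RT112 (log2 -0.96, SE 0.17) and TCCSUP (log2 -1.65, SE 0.17). CTNNB1, which codes for beta-catenin, was called lower in the 4 lines, with log2 fold changes from -0.71 in TCCSUP to -0.60 in RT112, and its J82 call was lost when J82 was fitted alone (-0.63, adjusted p = 0.0893). CD9, a tetraspanin, was called lower in TCCSUP (log2 -0.54, SE 0.16), a call lost under library size alone (-0.23, adjusted p = 0.253), without control replicate 1 (-0.44, adjusted p = 0.0979) and without treated replicate 2 (-0.41, adjusted p = 0.119).

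MUC1 belongs to the transmembrane mucins, of which 6 of 9 others were tested. They gave 4 higher and 0 lower calls in 253J, 2 and 0 in J82, 4 and 1 in RT112, and 2 and 2 in TCCSUP, where library size alone left 0 lower in RT112 and 1 in TCCSUP. The median log2 fold change was 2.44, 2.17, 3.36 and -0.03, the last turning to 0.28 under library size alone, and it was 2.44, 1.15, 2.74 and -0.03 with genes at 0 at their bound. MUC16, which carries the antigen CA125, rose in RT112 from 3.89 ± 0.828 to 24.98 ± 5.23 CPM (log2 2.68, SE 0.38) and, from 0 counts, in 253J by at least 7.21-fold. In TCCSUP MUC16 was called lower (log2 -1.02, SE 0.37). That call was lost under library size alone (-0.70) and without either control replicate or treated replicate 1. MUC4, a membrane mucin that pairs with ERBB2, rose in RT112 from 0.614 ± 0.149 to 10.2 ± 2.85 CPM (log2 4.04, SE 0.57). MUC20, another membrane mucin, rose in 253J (log2 2.84, SE 0.47) and, from 0 counts, in TCCSUP by at least 7.90-fold. In RT112 it was called lower (log2 -0.87, SE 0.31), a call lost without either control replicate or treated replicate 1 (for example -0.65, adjusted p = 0.210). MUC15 fell in TCCSUP, as MUC1 did, from 34.00 ± 4.97 to 5.75 ± 0.990 CPM (log2 -2.56, SE 0.29). MUC3A was called higher in the 4 lines, from control means of at most 0.204 CPM. Its 253J call (log2 2.05, SE 0.80) was lost in 10 of the alternatives, among them DESeq2 (2.13, adjusted p = 0.0902). The others included the replicate block (1.38), which compares single libraries in 253J, and leaving out either control replicate (2.14 and 1.96) or treated replicate 1 (1.29).

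The GALNT enzymes start the O-glycan chains of mucins and C1GALT1 extends them. Of 18 tested genes of this list, 1 was higher and 10 lower in 253J, 5 and 2 in J82, 4 and 8 in RT112, and 3 and 8 in TCCSUP, with 1 lower in J82 and 5 in TCCSUP under library size alone. The median log2 fold change was -0.997, 0.60, -0.56 and -0.36, and with genes at 0 at their bound it was -0.76 in 253J and 0.23 in J82. Under library size alone the TCCSUP median was -0.05. GALNT1 fell in RT112, the line where MUC1 rose, from 1390 ± 29.03 to 309.5 ± 31.99 CPM (log2 -2.17, SE 0.19). It also fell in 253J (log2 -1.10, SE 0.19) and was called lower in TCCSUP, where MUC1 fell (log2 -0.62, SE 0.18). The TCCSUP call of GALNT1 was lost under library size alone (-0.31) and without control replicate 1 (-0.42) or treated replicate 2 (-0.42). GALNT7 fell in 253J (log2 -3.10, SE 0.32) and TCCSUP (log2 -2.43, SE 0.31). GALNT2 fell in 253J (log2 -1.62, SE 0.14), RT112 and TCCSUP and rose in J82 (log2 0.65, SE 0.14). GALNT10 and C1GALT1 fell in 253J (log2 -1.53, SE 0.17, and log2 -0.89, SE 0.14).

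Tissue factor is held in check by TFPI, the tissue factor pathway inhibitor, while the related TFPI2 mainly inhibits plasmin and matrix proteases. TFPI fell with CM-1758 in the 4 lines, from 391 ± 36.2 to 43.3 ± 1.96 CPM in 253J (log2 -3.18, SE 0.26), 208 ± 10.5 to 56.5 ± 26.3 in J82 (log2 -1.88, SE 0.25), 104 ± 3.41 to 24.7 ± 7.53 in RT112 (log2 -2.07, SE 0.26) and 497 ± 29.9 to 39.6 ± 2.76 in TCCSUP (log2 -3.65, SE 0.27). TFPI2 rose in the 4 lines, from 1123 ± 75.1 to 5523 ± 667 CPM in 253J (log2 2.30, SE 0.18), 33.3 ± 6.68 to 462 ± 28.7 in J82 (log2 3.80, SE 0.19), 95.01 ± 1.57 to 242 ± 47.6 in RT112 (log2 1.35, SE 0.18) and 45.6 ± 3.81 to 386 ± 6.48 in TCCSUP (log2 3.08, SE 0.19). TFPI thus fell both in RT112, where F3 rose, and in TCCSUP, where F3 fell. The calls of TFPI and TFPI2 held in every alternative that was run.

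**Figure D2:**
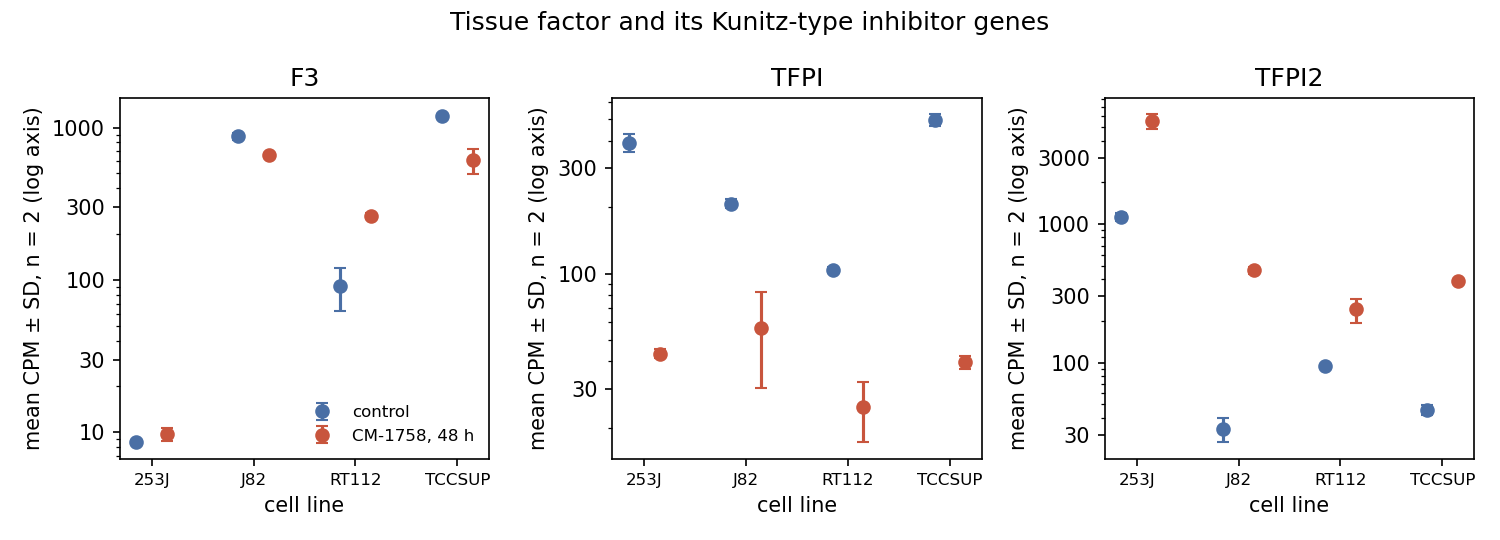
Mean CPM and SD (n = 2, log axis) of F3, TFPI and TFPI2 in control (blue) and CM-1758 (red) groups of each line. F3 moves up in RT112 and down in TCCSUP, while TFPI is lower and TFPI2 higher with CM-1758 in each of the 4 lines.

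Of 15 genes listed for the tissue factor pathway, 12 were tested, of which 2 were higher and 5 lower in 253J (3 lower under library size alone), 6 and 2 in J82, 7 and 3 in RT112, and 2 and 5 in TCCSUP. The median log2 fold change was -0.22, 1.26, 0.94 and -0.30, with 0.05 in 253J and -0.01 in TCCSUP under library size alone, and with genes at 0 at their bound it was 0.95 in J82 and 0.75 in RT112. PDIA3, a disulfide isomerase of the endoplasmic reticulum, fell in the 4 lines, with log2 fold changes from -2.09 in 253J to -0.80 in RT112. P4HB, another disulfide isomerase, fell in TCCSUP (log2 -1.31, SE 0.18) and RT112 (log2 -0.68, SE 0.18). It was also called lower in 253J (log2 -0.67, SE 0.18), a call lost under library size alone (-0.39, edgeR adjusted p = 0.0886). PROCR, the endothelial protein C receptor, fell in 253J from 1084 ± 49.3 to 228 ± 12.5 CPM (log2 -2.25, SE 0.15) and in TCCSUP (log2 -1.29, SE 0.14), and rose in RT112 (log2 0.99, SE 0.14).

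Among 34 other genes for antibody drug targets, 33 were tested. In 253J 11 were higher and 15 lower, in J82 13 and 3, in RT112 9 and 11, and for TCCSUP 13 and 11, with median log2 fold changes of -0.02, 0.39, 0.00 and -0.22. Under library size alone RT112 had 10 higher and 8 lower and the TCCSUP median was 0.09, while the J82 median was 0.18 with genes at 0 at their bound. ERBB2, the receptor tyrosine kinase HER2, fell in 253J from 119 ± 11.01 to 26.5 ± 2.84 CPM (log2 -2.17, SE 0.17), in RT112 from 221 ± 0.734 to 115 ± 5.58 (log2 -0.94, SE 0.16) and in TCCSUP from 72.9 ± 1.89 to 17.7 ± 1.44 (log2 -2.04, SE 0.17). In J82 ERBB2 went from 76.5 ± 13.6 to 49.6 ± 11.02 CPM (log2 -0.63, SE 0.16), a call lost without control replicate 1 (-0.43, adjusted p = 0.0722) or treated replicate 3 (-0.41, adjusted p = 0.0929). EGFR, the epidermal growth factor receptor, rose in RT112 from 314 ± 6.76 to 647 ± 46.1 CPM (log2 1.04, SE 0.22) and fell in 253J (log2 -0.91, SE 0.22). AXL, a receptor tyrosine kinase, fell in 253J (log2 -2.15, SE 0.32), J82 (log2 -2.11, SE 0.32) and TCCSUP (log2 -3.40, SE 0.34). MET, the receptor of hepatocyte growth factor, fell in 253J (log2 -1.80, SE 0.19). It was also called lower in TCCSUP (log2 -0.73, SE 0.18), a call lost under library size alone (-0.42, edgeR adjusted p = 0.0748). CD46, a regulator of complement, and EPHA2, an ephrin receptor, were called lower in 253J (log2 -0.50, SE 0.18, and log2 -0.71, SE 0.25), and both calls were lost without either control replicate. EPHA2 was also called lower in TCCSUP (log2 -0.93, SE 0.25), a call lost under library size alone (-0.62) and without treated replicate 2 (-0.64).

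FOLR1, the folate receptor alpha, and LRRC15, a membrane protein with leucine-rich repeats, were called higher in the 4 lines from low control levels, as NECTIN4 was in 3. FOLR1 went from 0.863 ± 0.552 to 17.8 ± 3.92 CPM in J82 (log2 4.36, SE 0.47) and reached 5.76 ± 0.529 in TCCSUP. Its 253J call was lost with a replicate block (log2 6.07), which compares single libraries in 253J. LRRC15 went from 1.19 ± 0.165 to 7.29 ± 0.123 CPM in TCCSUP (log2 2.61, SE 0.41). TPBG, the oncofetal antigen 5T4, was called lower in the 4 lines, from 140.2 ± 10.5 to 57.5 ± 3.48 CPM in TCCSUP (log2 -1.28, SE 0.14). The TPBG call in RT112 (log2 -0.37, SE 0.14) was lost in 15 of the alternatives, and those of 253J and J82 were lost without single libraries (for example -0.36, adjusted p = 0.109, and -0.46, adjusted p = 0.0513).

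**Figure D3:**
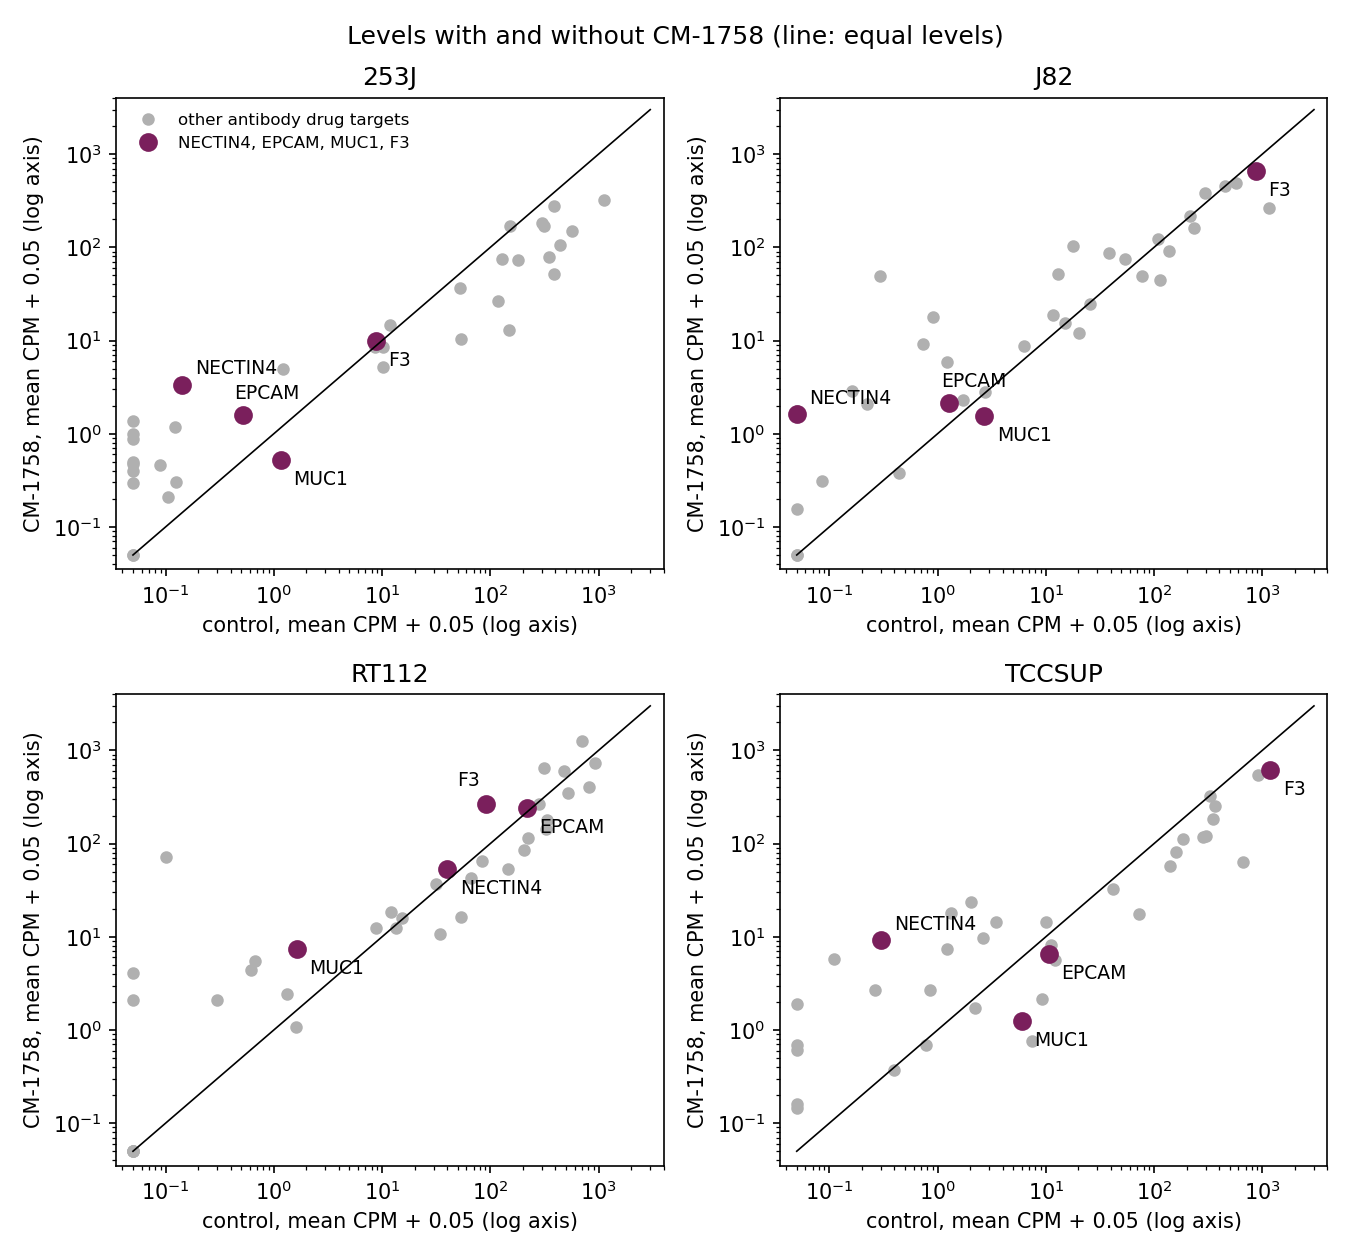
Mean CPM plus 0.05 with CM-1758 against mean CPM plus 0.05 in controls, both on log axes, for NECTIN4, EPCAM, MUC1 and F3 (purple, named) and 33 other antibody drug target genes (grey), 1 panel per cell line, n = 2 per mean. Points above the line of equal levels were higher with CM-1758, and NECTIN4 lies above it in each panel, nearest to it in RT112.

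Markers of epithelial and mesenchymal state were measured in the same libraries. The summed level of 22 epithelial and urothelial markers ran from 8769 to 9232 CPM in RT112 controls, the line with the highest NECTIN4 and EPCAM, 5972 to 8103 in J82, 3244 to 4388 in 253J and 1334 to 1455 in TCCSUP. With CM-1758 it was 6874 to 7620, 6982 to 7901, 1960 to 2441 and 519.6 to 601 CPM, in that order. The number of these markers at 0 in both control libraries was 1 in RT112, 9 in J82, 8 in 253J and 3 in TCCSUP. CM-1758 gave 5 higher and 4 lower calls in 253J, 11 and 1 in J82, 4 and 7 in RT112, and 8 and 6 in TCCSUP, with medians of 0.00, 0.74, -0.26 and 0.16 (0.00 in TCCSUP with genes at 0 at their bound). Under library size alone 253J had 6 higher and 3 lower, RT112 had 6 and 5, with a median of -0.11, and the TCCSUP median was 0.47. UPK1B, a uroplakin of the urothelial surface, fell in RT112 from 1408 ± 155 to 352 ± 9.78 CPM (log2 -2.00, SE 0.27). KRT20, a keratin of the outer urothelial cells, was called higher in the 4 lines, and from 0 control counts it was at least 84.5-fold higher in 253J and 33.3-fold in TCCSUP. KRT18 fell in 253J (log2 -1.60, SE 0.24) and in TCCSUP (log2 -2.57, SE 0.24). CDH1, which codes for E-cadherin, went from 181 ± 14.5 to 26.1 ± 3.78 CPM in 253J (log2 -2.80, SE 0.22) and from 3.82 ± 0.617 to 26.1 ± 1.45 in J82 (log2 2.77, SE 0.24).

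The 10 mesenchymal markers summed to 940 to 1017 CPM in RT112 controls, 10969 to 11317 in TCCSUP, 2971 to 3350 in 253J and 2057 to 2418 in J82. With CM-1758 they summed to 1686 to 1724, 2190 to 2614, 2470 to 2552 and 4198 to 4745 CPM in that order. In RT112, 8 of 10 were called higher and 0 lower, with a median of 2.99 (2.36 with genes at 0 at their bound), and TCCSUP had 3 and 6, with a median of -1.27. In 253J 2 were higher and 3 lower, and in J82 4 and 3, with medians of -0.15 and -0.09 that turned to 0.12 and 0.05 under library size alone. VIM, which codes for vimentin, rose in RT112 from 0.444 ± 0.389 to 8.51 ± 3.02 CPM (log2 4.23, SE 0.39). It also rose in TCCSUP (log2 1.93, SE 0.29) and fell in J82 (log2 -0.98, SE 0.25). ZEB1, a repressor of epithelial genes, stood at 0.428 ± 0.366 CPM in RT112 controls and 4.78 ± 0.879 with CM-1758 (log2 3.45, SE 0.32), and at 25.7 to 36.3 in the other control means. COL1A2, a chain of collagen I, fell in TCCSUP from 5203 ± 206 to 256 ± 23.3 CPM (log2 -4.34, SE 0.25). SNAI1, another repressor of epithelial genes, was called higher in the 4 lines, and its J82 call (log2 2.38, SE 0.64) was lost when J82 was fitted alone (2.39, adjusted p = 0.0800). The part of these markers in the results for NECTIN4, EPCAM, MUC1 and F3 was not tested.

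Of 6 leukocyte markers, 4 were tested, and the summed level of the 6 lay between 0.131 and 21.4 CPM in the control libraries and between 3.80 and 20.5 with CM-1758. CD3E, a T cell marker, was at 0 in the control libraries of the 4 lines. Higher calls with CM-1758 numbered 1 for 253J, 2 for J82, 3 for RT112 and 2 for TCCSUP, and 1 lower call was that of PTPRC in TCCSUP. The 5 endothelial markers summed to 2.79 to 12.0 CPM in the controls of 253J, J82 and RT112. In TCCSUP, where F3 fell, they summed to 194 to 227 CPM in controls and 18.3 to 20.3 with CM-1758, most of it TEK, an angiopoietin receptor that went from 209 ± 23.5 to 13.3 ± 0.931 CPM (log2 -3.97, SE 0.18). Calls among the 5 were 1 higher and 1 lower in 253J, 1 and 0 in J82, 0 and 0 in RT112, and 2 and 1 in TCCSUP. Their part in the results was not tested.

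The genes most like each member across the 16 libraries were ranked by Pearson's r of log2 CPM among 14209 genes. The libraries fall into 8 groups of line and treatment, so r is given as a description. For NECTIN4 they were ADAM28 (r = 0.980), a membrane protease, GRHL1 (0.972), an epithelial transcription factor, and POTEF (0.965), whose reads may be shared with near-identical members of its family. For EPCAM they were EHF (0.972), an epithelial ETS factor, ST14 (0.972), the membrane protease matriptase, and RNU4-2 (0.971), a small nuclear RNA of the spliceosome that has near-identical copies. For MUC1 they were TBC1D22B (0.934), LOC101927751 (0.913) and SF3B4 (0.910), a splicing factor, and for F3 they were MRC2 (0.981), a collagen receptor, TMEM171 (0.974) and SLC35G2 (0.969). ADAM28 was at 0 in 253J and J82 controls, at 12.6 CPM in RT112 controls and at 4.77 CPM in treated TCCSUP. MRC2 stood at 256 CPM in TCCSUP controls and 76.8 with CM-1758, and at 3.01 and 16.1 in RT112, where F3 rose.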

How the data were processed

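RNA was sequenced from 16 libraries of 4 BC lines, 2 per group (control or CM-1758), as stranded total RNA depleted of ribosomal RNA. The deposited table holds raw read counts per gene symbol that the authors did not normalize. The submitters' processing notes name GRCh37, HISAT2 and StringTie, without their roles, and the counting tool and its strand setting are not given in the sources used here. A gene and an antisense partner therefore cannot be told apart with certainty. NECTIN4 has an opposite-strand gene whose exons do not overlap its own.

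Counts were fitted with edgeR 4.0.16 (R 4.3.3) across the 8 groups, with TMM scaling, filterByExpr, quasi-likelihood F tests and Benjamini-Hochberg adjustment over 21297 genes. The study's methods name DESeq2 with no block, which was kept as an alternative. SE is the log2 fold change divided by the root of F. Alternatives were RLE scaling, library size alone, DESeq2 1.42.0, each line fitted alone, other count filters, a replicate block and leaving out each library. On simulated data the fit recovered only part of the changes put in, so a p that misses the threshold does not show that values did not differ. Figures used matplotlib 3.10.9.

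Members (by symbol) and gene lists were chosen with earlier results of these data known. Named were the 4 members, the 3 most correlated genes of each (mean log2 CPM above 0), and from each list the 5 tested genes with the highest mean CPM and any called in 1 direction in the 4 lines, and of the markers KRT8, KRT18, CDH1, GATA3, VIM and ZEB1. Samples were grouped by the labels. Depth of 22506431 to 32537104 counts leaves levels near 0.1 CPM at 3 counts or fewer, and intervals cover counting error only. A few list genes are counted but not reported here by name.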

Additional observations from a re-analysis of the deposited data

Results flagged for a closer look

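The change with CM-1758 differed between the 4 cell lines for each of the genes by an interaction F test over lines in edgeR, adjusted by Benjamini-Hochberg over all tested genes. The adjusted p was 5.62e-07 for NECTIN4, with a rise in 253J, J82 and TCCSUP from at most 8 counts per control library. It was 0.00105 for EPCAM, where the log2 value was 1.72 in 253J and -0.70 in TCCSUP. It was 0.000434 for MUC1, with 2.23 in RT112 and -2.30 in TCCSUP. It was 1.87e-05 for F3, with 1.53 in RT112 and -0.96 in TCCSUP. Of all tested genes, 51.9% passed this test, and each line received its own concentration of CM-1758, so line and concentration cannot be told apart. Groups of 2 libraries were too small for a test of single outlying libraries.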

How the results depend on the processing

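NECTIN4 in 253J, J82 and TCCSUP, EPCAM in 253J, and MUC1 and F3 in RT112 and TCCSUP kept their direction and their call in every alternative that gave a value, and so did the 4 interaction F tests and the F tests of control levels. NECTIN4 had no value where at least 10 counts were required in every library. Single libraries decided other values when left out in turn. EPCAM in TCCSUP (-0.70) ranged from -0.93 to -0.51 and was -0.39 under library size alone. EPCAM in J82 (0.73) ranged from 0.36 to 1.23, and passed at 0.82 under RLE scaling, 0.88 under library size alone, 0.82 with DESeq2 and 0.84 with at least 10 counts in every library. NECTIN4 in RT112 (0.42) ranged from 0.20 to 0.67, and passed at 0.50 under RLE scaling and 0.57 under library size alone. MUC1 ranged from -1.72 to -0.46 in 253J and from -1.37 to 0.12 in J82.

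Some differences between lines missed the threshold in the main fit and changed sign when single libraries were left out. For MUC1 these were the responses of 253J and J82 (-1.34 to 0.34) and treated J82 and TCCSUP (-0.23 to 0.73). The MUC1 difference between J82 and RT112 controls was 0.74 in the main fit and ran from -0.20 to 1.30. NECTIN4 changed sign in the responses of 253J and TCCSUP (-0.41 to 0.21), and F3 in treated J82 and TCCSUP (-0.066 to 0.33). That F3 difference was -0.12 under library size alone and -0.0028 with at least 10 counts in every library. The cause was not tested.

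Replicate numbers were not used as pairs in the main fit. Deviations of same-numbered libraries from their group means correlated at r = 0.053 in 253J, 0.043 in RT112, 0.017 in TCCSUP and 0.218 in J82. With 2 libraries per group, such an r cannot show whether same-numbered libraries came from the same experiment. With a replicate block, NECTIN4 in RT112 (0.44) passed the threshold, and MUC1 came to differ in the responses of J82 and TCCSUP (1.56, edgeR adjusted p = 0.0265). In 253J the block compares single libraries, so only effect sizes are given for that line. MUC1 in 253J was then -1.62, and NECTIN4 in the responses of 253J and TCCSUP turned to 0.33. The difference between the EPCAM responses of 253J and RT112 was 1.59. Named list genes that lost a call under the block were ITGAM in J82 and, from single libraries of each group, MUC3A, FOLR1, CD46 and TEK in 253J. For the same reason, calls over all genes in 253J are not compared under the block.

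Counts of calls over all genes moved by more than 1.5 times in a few cases. Lower calls in TCCSUP went from 4710 to 3137 under library size alone. Lower calls in J82 went from 3933 of 21297 tested genes to 2504 of 16756 when J82 was fitted alone. Requiring at least 10 counts in every library left 11984 of the 21297 genes, so counts of calls then have a smaller base. Higher calls went from 6134 to 3897 in 253J, 5111 to 3209 in J82, 5843 to 3324 in RT112 and 6808 to 3729 in TCCSUP.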
